A study of Danio rerio with 12 samples.

Results

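The genes described here write, erase and read N6-methyladenosine (m6A), a methyl mark on adenosines of messenger RNA, and among them fto, an eraser, is followed most closely. The 10 genes were taken by name, 2 erasers (fto, alkbh5), 3 writers (mettl3, mettl14, wtap) and 5 readers (ythdf1, ythdf2, ythdf3, ythdc1, igf2bp3), and each matched 1 of the 31462 gene identifiers in the deposited tables. They were chosen with earlier results of these data known. Poly-A RNA came from zebrafish embryos of the AB strain in 4 groups of 3 libraries, each made from 30 to 50 pooled embryos. Wildtype (wt) embryos and embryos lacking both the maternal and the zygotic product of smchd1 (MZ) were collected at the 4- to 8-cell stage and at the sphere stage, which lie on either side of the onset of transcription from the embryo's own genome. The MZ embryos were homozygous for a single CRISPR/Cas9 frameshift allele, smchd1 lof1, carried by 1 line, and no group received any treatment. The wt embryos are not stated to be siblings of that line. Genotype and line background therefore cannot be told apart in the comparisons below.

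m6A is placed on nascent transcripts by a complex in which Mettl3 is the catalytic methyltransferase, Mettl14 its partner that helps to hold the RNA, and Wtap the adaptor that brings the pair to nuclear speckles. Fto and Alkbh5, iron-dependent dioxygenases, take the methyl group off, and Fto also acts on the related cap mark m6Am. Proteins with a YTH domain bind the mark in the cytoplasm (Ythdf) or the nucleus (Ythdc1), and in zebrafish Ythdf2 takes part in the clearance of maternal transcripts after fertilisation, while Igf2bp3 stabilises maternal transcripts.

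The libraries held 7829742 to 23681822 expected counts, and a ribosomal RNA gene that was removed took 0.00632 to 3.98% of them. The largest share and the smallest total were both in MZ sphere replicate 1. In sphere libraries the share was 0.00632 to 0.0221% in wt and 0.309 to 3.98% in MZ. Totals there were 16813724 to 17266229 counts in wt and 7829742 to 16625111 in MZ. Neither overlapped between genotypes at the sphere stage, while both did at the 4- to 8-cell stage. Genotype and these library properties therefore cannot be told apart in sphere embryos, and their part in the sphere results below was not tested. The transcript of smchd1, which encodes an SMC-like silencing factor, was lower in MZ embryos at both stages, by log2 fold changes of -5.17 (SE 0.15) and -5.95 (SE 0.23), with edgeR adjusted p of 0.000105 and 6.06e-05. Levels in CPM are counts over library size scaled with edgeR's TMM factors. In CPM, 18 zygotic blastula genes summed to 7.63 to 10.7 in wt and 15.2 to 21.8 in MZ 4- to 8-cell libraries. In sphere libraries they summed to 1990 to 2790 in wt and 1570 to 2310 in MZ. The part of these genotype differences in the results below was not tested. A list of 14 maternal egg genes summed to 7050 to 7730 in wt and 7000 to 8010 in MZ 4- to 8-cell libraries. In sphere libraries it summed to 6060 to 6620 in wt and 6100 to 6450 in MZ. Blood and liver markers summed to at most 2.1 CPM in any library. Markers of the ovarian follicle, of which 8 of 10 symbols were matched, summed to 170 to 339 CPM in wt and 106 to 140 CPM in MZ 4- to 8-cell libraries, and to 103 to 175 CPM in wt and 78.4 to 89.9 CPM in MZ sphere libraries. Of these markers only cyp11a1 (at both stages) and hsd3b1 (at 1 stage) had a mean scaled count above 10. The sums therefore say little about the other follicle markers. The part of the follicle markers in the results below was not tested. In pooled embryos, fewer cells of a type and less RNA per cell cannot be told apart.

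All 10 transcripts were present at both stages in both genotypes. In TPM, a level per length of transcript, ythdf2 had the highest mean and fto the lowest in each of the 4 groups. In wt 4- to 8-cell embryos ythdf2 stood at 173.8 ± 7.39 TPM (SD, n = 3 here and for every group), igf2bp3 at 155.7 ± 9.44, mettl14 at 131.7 ± 4.09 and fto at 22.1 ± 5.98. Between mettl14 and ythdf1 (58.3 ± 2.84 TPM) lay wtap, ythdc1, alkbh5, ythdf3 and mettl3, in that order, from 90.8 ± 8.18 to 71.0 ± 7.17 TPM, and each overlapped the next in the order. In wt sphere embryos ythdf2 (177.8 ± 10.3 TPM) and igf2bp3 (131.0 ± 12.9 TPM) kept the upper 2 places without overlap, fto stood at 9.48 ± 2.03 TPM, and wtap, mettl14, ythdc1 and mettl3 overlapped each other in sequence from 83.0 to 67.3 TPM. In MZ embryos of the 4- to 8-cell stage the order opened with ythdf2 (157.2 ± 7.46 TPM), igf2bp3 (144.5 ± 9.20) and mettl14 (135.4 ± 7.67), each overlapping the next. At the sphere stage ythdf2 stood alone in MZ embryos at 193.9 ± 10.6 TPM, mettl14 (113.5 ± 19.6 TPM) overlapped igf2bp3 (112.5 ± 3.87 TPM), and fto was at 2.89 ± 0.393 TPM.

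**Figure D1:**
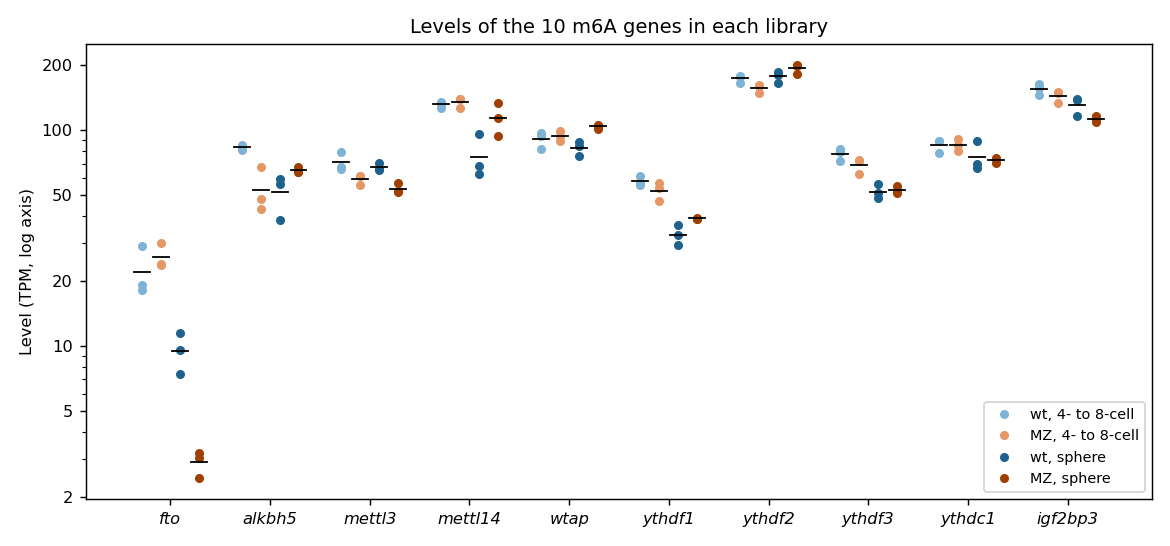
Level of each of the 10 genes in each of the 12 libraries, in TPM on a log axis. Points are libraries, coloured by genotype and stage, and black bars are group means. The lowest gene in every group is fto, at 22.1 and 9.48 TPM in wt 4- to 8-cell and sphere embryos. In MZ embryos it is at 25.9 and 2.89 TPM at these stages.

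The eraser fto (ENSDARG00000044216) was lower in MZ than in wt embryos at the sphere stage and was not called at the 4- to 8-cell stage. In 4- to 8-cell embryos the libraries held 36.1, 53.8 and 36.6 CPM in wt and 50.1, 56.9 and 44.5 CPM in MZ embryos. The wt replicate 2 lay among the MZ libraries, so the groups overlapped, and the log2 fold change of 0.28 (SE 0.18) had an adjusted p of 0.426. In sphere embryos the wt libraries held 27.6, 21.8 and 30.0 CPM and the MZ libraries 6.44, 8.52 and 7.37 CPM, the latter from 49, 137 and 95 counts. Every MZ sphere library lay below every wt sphere library and below every 4- to 8-cell library of either genotype. The log2 fold change at the sphere stage was -1.83 (SE 0.21), 3.56-fold lower in MZ, with an edgeR adjusted p of 0.00697. Of the 16314 genes tested at that stage, 2.17% had a more negative fold change. When any 1 library was left out the log2 fold change lay between -1.96 and -1.74 and the adjusted p between 0.00703 and 0.0434.

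The fall of fto between the stages was larger in MZ than in wt embryos, by a test of the difference itself. In wt embryos fto went from 42.2 ± 10.1 to 26.5 ± 4.23 CPM, a log2 fold change of -0.61 (SE 0.19, adjusted p 0.0181), and in MZ embryos from 50.5 ± 6.19 to 7.44 ± 1.04 CPM, a log2 fold change of -2.71 (SE 0.20, adjusted p 1.73e-06), 6.56-fold. In a fit to all 12 libraries the genotype by stage interaction was -2.10 (SE 0.27), with an edgeR adjusted p of 0.00946, and stayed between -2.32 and -2.001 with any 1 library left out. The stage and genotype comparisons use the same libraries and are not independent of each other. Because poly-A RNA was selected, transcript amount and poly-A tail cannot be told apart, here or in the stage changes below. The call in wt embryos rested on single libraries: it was lost without wt 4- to 8-cell replicate 2 (log2 fold change -0.40, adjusted p 0.0921) and without wt sphere replicate 2 (-0.49, adjusted p 0.069). The fall in MZ embryos was called without any 1 library, at -2.82 to -2.63.

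The other eraser, alkbh5 (ENSDARG00000063003), showed another pattern. In 4- to 8-cell embryos it held 72.8, 69.6 and 71.0 CPM in the wt libraries and 43.9, 36.5 and 56.4 CPM in the MZ libraries. All 3 MZ libraries lay below the wt libraries, but the log2 fold change of -0.62 (SE 0.16) had an edgeR adjusted p of 0.0936 and was not called. DESeq2 called it (-0.62, adjusted p 0.00918), and so did edgeR without MZ 4- to 8-cell replicate 3 (-0.82, adjusted p 0.049). In sphere embryos the wt libraries held 76.4, 50.2 and 65.3 CPM and the MZ libraries 74.3, 75.1 and 72.0 CPM. These groups overlapped, with wt replicate 2 the lowest (log2 fold change 0.20, SE 0.16, adjusted p 0.454). Across stages alkbh5 rose in MZ embryos by 0.73 (SE 0.17, adjusted p 0.00545) and had a value of -0.09 (SE 0.17, adjusted p 0.685) in wt embryos. The interaction was 0.82 (SE 0.24, adjusted p 0.0917), not called by edgeR and called by DESeq2 (adjusted p 0.026).

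The balance of the 2 eraser transcripts is described by library. Of the summed TPM of fto and alkbh5, fto made up 18.3, 25.8 and 18.4% in wt and 33.3, 40.9 and 26.0% in MZ 4- to 8-cell libraries. In sphere libraries it made up 13.8, 16.2 and 16.9% in wt and 3.66, 4.72 and 4.29% in MZ libraries. The groups did not overlap at either stage, and MZ was the higher at the first and the lower at the second. At the first stage the nearest libraries were 25.8% in wt and 26.0% in MZ. There edgeR called neither gene (adjusted p 0.426 for fto and 0.0936 for alkbh5). In CPM, 28.9% of all genes did not overlap between genotypes at the 4- to 8-cell stage and 34.5% at the sphere stage. These percentages are for single genes, and none was counted for a TPM share of 2 genes. The smallest p that an exact permutation test of 3 against 3 libraries allows is 0.1, so no test is given.

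**Figure D2:**
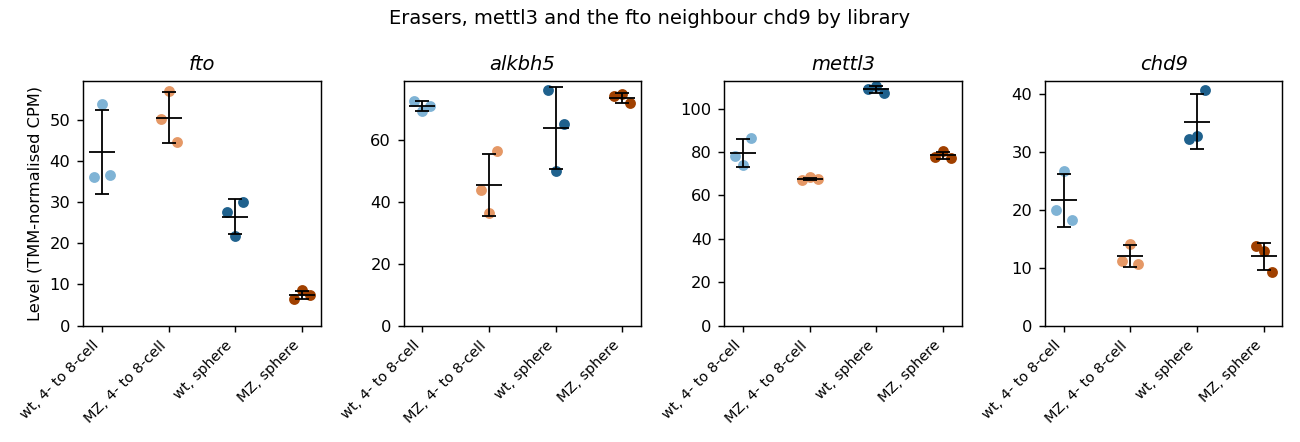
Levels of fto, alkbh5, mettl3 and chd9 in each library, in TMM-normalised CPM on axes that start at 0. Points are libraries and black bars the mean ± SD of 3; fto is at 7.44 ± 1.04 CPM in MZ sphere embryos against 26.5 ± 4.23 CPM in wt, and mettl3 in MZ sphere embryos lies below all wt sphere libraries.

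Of the writers, mettl3 (ENSDARG00000012827) was lower in MZ sphere embryos. The wt sphere libraries held 109.3, 110.4 and 107.1 CPM and the MZ sphere libraries 77.8, 80.4 and 77.5 CPM. The 2 groups did not overlap, and the log2 fold change was -0.48 (SE 0.09, edgeR adjusted p 0.0266). The SDs of 1.68 and 1.62 CPM come from 3 libraries each and are imprecise, so the gap is not judged by them. The adjusted p rose above 0.05 without wt sphere replicate 1 (0.0591), MZ sphere replicate 2 (0.141) or MZ sphere replicate 3 (0.131), while the fold change stayed between -0.50 and -0.47. On the log2(TPM + 1) scale limma gave -0.32 (adjusted p 0.104), where the median of all genes was 0.13 (TMM, 0.00). Before zygotic transcription mettl3 held 78.1, 74.1 and 86.5 CPM in wt and 67.3, 68.3 and 67.7 CPM in MZ libraries, again without overlap, with a log2 fold change of -0.21 (SE 0.08) and an adjusted p of 0.189, not called.

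The partner mettl14 (ENSDARG00000070278) had the opposite sign at the sphere stage. It held 89.5, 98.7 and 122.9 CPM in the wt sphere and 120.7, 148.1 and 157.1 CPM in the MZ sphere libraries. The groups touched at wt replicate 3 and MZ replicate 1, and the log2 fold change of 0.44 (SE 0.15) was not called (adjusted p 0.101), although a fit to all 12 libraries called it (0.45, adjusted p 0.03). The adaptor wtap (ENSDARG00000042642) held 118.2, 127.9 and 124.6 CPM in wt and 137.6, 144.5 and 134.6 CPM in MZ sphere libraries, without overlap, at a log2 fold change of 0.16 (SE 0.09, adjusted p 0.289). Earlier, at the 4- to 8-cell stage, both genes overlapped between genotypes, with log2 fold changes of 0.07 (SE 0.07) for mettl14 and 0.02 (SE 0.10) for wtap. The TPM of the 3 writers summed to 293.5 ± 2.93 in wt and 289.6 ± 1.80 in MZ 4- to 8-cell embryos, and to 225.7 ± 25.8 and 271.4 ± 23.5 in sphere embryos. The sphere sums overlapped between genotypes, with up to 254.6 in wt and from 247.7 in MZ. At the sphere stage the median log2 fold change of all genes was 0.13 on log2(TPM + 1), and the sums are not adjusted for it.

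None of the 5 readers was called between genotypes. The largest reader value was that of igf2bp3 (ENSDARG00000010266) at the sphere stage, with 412.7, 522.3 and 450.1 CPM in wt and 395.2, 374.7 and 349.9 CPM in MZ libraries. The MZ libraries all lay below the wt libraries, and the log2 fold change was -0.32 (SE 0.11, adjusted p 0.12). A fit to all 12 libraries called it (-0.31, adjusted p 0.0428). The nuclear reader ythdc1 (ENSDARG00000051953) spanned 124.5 to 187.4 CPM in wt and 111.6 to 132.3 CPM in MZ sphere libraries (-0.28, SE 0.17, adjusted p 0.317), with the highest value in wt replicate 1. The cytoplasmic readers ythdf1 (ENSDARG00000016447), ythdf2 (ENSDARG00000014498) and ythdf3 (ENSDARG00000057939) differed by 0.08 (SE 0.12), -0.10 (SE 0.14) and -0.12 (SE 0.09) at the sphere stage. For 4- to 8-cell embryos the reader log2 fold changes lay between -0.15 and 0.00. Among these, ythdf2 held 206.2 to 211.0 CPM in wt and 183.9 to 190.2 CPM in MZ libraries, without overlap (-0.15, SE 0.05, adjusted p 0.144). The summed TPM of the readers was 551.3 ± 29.7 in wt and 508.8 ± 31.7 in MZ 4- to 8-cell embryos, and 468.6 ± 16.7 and 471.4 ± 13.0 in sphere embryos. These sums, too, are not adjusted for the median of all genes on the TPM scale.

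All 10 genes passed the filter on low counts in every fit. At the 4- to 8-cell stage edgeR called 0 of them, against 3.02% of all 15937 genes tested. At an unadjusted edgeR p under 0.05 there were 3 (alkbh5, mettl3 and ythdf2). The sphere stage had 4 at that threshold (fto, mettl3, mettl14 and igf2bp3). The share of all genes under the unadjusted threshold was not counted. DESeq2 called 1 at the 4- to 8-cell stage (alkbh5), where it called 12.1% of all genes. At the sphere stage edgeR called 2 of 10, fto and mettl3, both lower, against 7.78% of all genes and 4.07% for lower genes. Groups did not overlap for 5 of 10 at the 4- to 8-cell stage, where 28.9% of all genes did not, and for 5 of 10 at the sphere stage, where 34.5% did not. The median log2 fold change of the 10 was -0.10 at the 4- to 8-cell stage and -0.11 at the sphere stage, beside 0.00 over all genes at each. For the interaction 1 of 10 was called, fto, against 1.97% of all genes (0.874% with a negative value). The 10 genes, fto among them, were chosen with earlier results of these data known. Their counts beside the shares of all genes are therefore a description and no test of the list. Apart from fto, alkbh5 and mettl3 the genotype values stayed between -0.32 and 0.44 on the log2 scale at both stages.

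**Figure D3:**
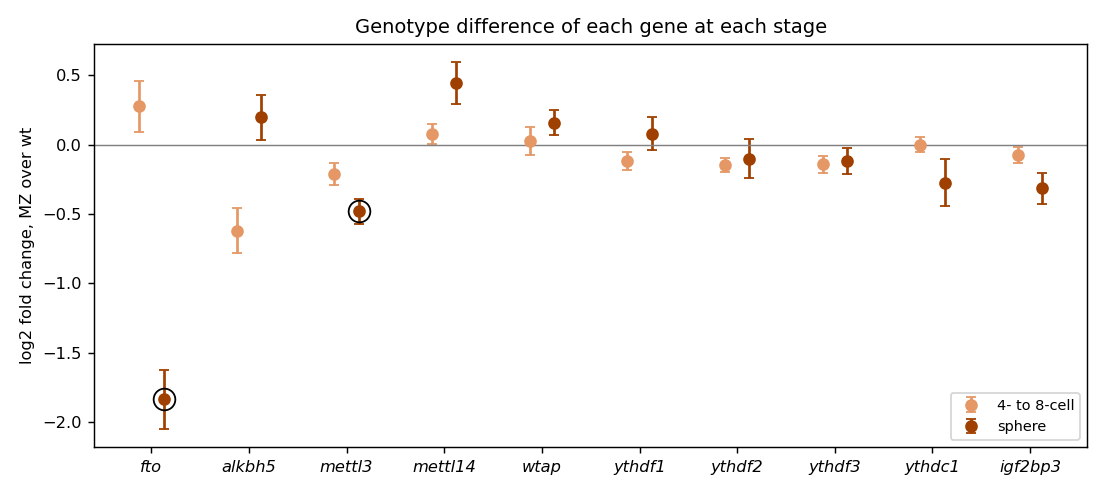
Log2 fold change of MZ over wt for each of the 10 genes at the 4- to 8-cell and sphere stages. Points are edgeR estimates, bars are ± 1 SE from 3 libraries per group, and circles mark an adjusted p under 0.05; the circled genes are fto (-1.83) and mettl3 (-0.48), both at the sphere stage.

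Between the stages of wt embryos 7 of the 10 genes changed on the TMM scale, where 48.3% of all genes did, 24.7% upward and 23.6% downward. Higher at the sphere stage were ythdf2 by 0.62 (SE 0.11), mettl3 by 0.52 (SE 0.08), ythdc1 by 0.37 (SE 0.13), wtap by 0.35 (SE 0.09) and igf2bp3 by 0.33 (SE 0.09), and lower were fto and ythdf1 (-0.25, SE 0.10). Adjusted p ran from 0.000181 for mettl3 to 0.0494 for ythdf1. The call of ythdf1 was lost in 11 of the 12 fits that each left out 1 library, all but the one without wt sphere replicate 2, at -0.28 to -0.19 in those 11. That of ythdc1 was lost without any 1 of the 3 wt 4- to 8-cell libraries (adjusted p 0.0881, 0.0799 and 0.0674) or without wt sphere replicate 1, which lowered it to 0.18 (adjusted p 0.146).

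In MZ embryos 5 of the 10 changed, where 39.5% of all genes did, 20% upward and 19.6% downward. Higher at the sphere stage were alkbh5 by 0.73, ythdf2 by 0.67 (SE 0.11), wtap by 0.49 (SE 0.09) and mettl3 by 0.25 (SE 0.08), and fto was lower. The call of mettl3 (adjusted p 0.0226) was lost without MZ 4- to 8-cell replicate 1 (0.0692), MZ 4- to 8-cell replicate 2 (0.0576) or MZ sphere replicate 2 (0.0734). Of the 10 interactions edgeR called that of fto alone, so by that test a stage call in 1 genotype was not shown to differ between genotypes for the other 9. DESeq2 also called that of alkbh5, 2 of 10 where it called 8.56% of all genes.

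These directions are relative to the median gene and depend on the scale. On the log2(TPM + 0.1) scale limma called 0 of the 10 higher and 6 lower in wt (fto, alkbh5, mettl14, ythdf1, ythdf3 and igf2bp3), where it called 59.5% of all genes. In MZ embryos it called 1 higher (ythdf2) and 4 lower (fto, ythdf1, ythdf3 and igf2bp3), where it called 51.3%. Of all the stage calls, 18.4% in wt and 21.8% in MZ were higher at the sphere stage on that scale, beside 51.2% and 50.5% with TMM. On the same scale the median of all genes moved by -0.59 between stages in wt and by -0.41 in MZ embryos. The stage values of mettl3, wtap, ythdc1 and igf2bp3 in wt were below 0, at -0.07, -0.13, -0.20 and -0.25 (limma called the last, adjusted p 0.0368), as was that of mettl3 in MZ (-0.15). The value was 0.03 for ythdf2 in wt (adjusted p 0.755), 0.33 for alkbh5 in MZ (0.145) and 0.14 for wtap in MZ (0.224), none of which limma called. Taken relative to the median, they were 0.52, 0.46, 0.39 and 0.34 in wt and 0.25 in MZ, ythdf2 in wt was 0.62, and alkbh5 and wtap in MZ were 0.74 and 0.55. The value of fto was -1.20 in wt and -3.12 in MZ on the TPM scale, and -0.61 and -2.71 relative to the median.

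**Figure D4:**
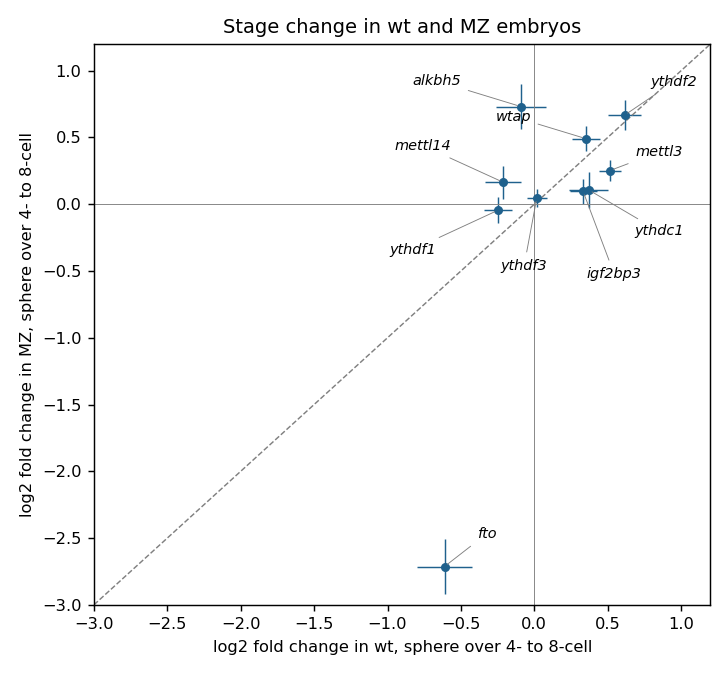
Log2 fold change from the 4- to 8-cell to the sphere stage in wt embryos (x axis) and in MZ embryos (y axis), on the TMM scale. Points are the 10 genes, bars are ± 1 SE and the dashed line marks equal change; fto (-0.61 in wt, -2.71 in MZ) lies farthest from it, and its interaction was the 1 that edgeR called (DESeq2 also called that of alkbh5).

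The tables also give a transcript length for each gene, the mean over its isoforms weighted by their estimated abundance, so that a shift in it is a shift in the estimated isoform mix. It varied between libraries for 7 of the 10 genes, and was constant for mettl14, ythdf3 and alkbh5. In 4- to 8-cell embryos 2 of the 7 did not overlap between genotypes, where 13.2% of all genes with a varying length did not. For wtap the length was 1965 to 1983 bases in wt and 1857 to 1925 bases in MZ, and for ythdc1 2454 to 2514 bases in wt and 2378 to 2451 bases in MZ. Both were shorter in MZ embryos.

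In sphere embryos 4 of the 7 did not overlap, where 13.9% of all such genes did not. Again ythdc1 was shorter in MZ, at 2235 to 2318 bases against 2321 to 2457 bases in wt, and ythdf1 was shorter too, at 4018 to 4068 against 4072 to 4147 bases. The other two were longer in MZ: igf2bp3 at 4255 to 4286 against 4051 to 4173 bases, and fto at 3353 bases in all 3 MZ libraries against 3297 to 3322 bases in wt. The value of 3353 bases was also that of 1 wt and 1 MZ library of the 4- to 8-cell stage, and in MZ sphere embryos it rests on the 49 to 137 counts given above. For ythdf1 the length was 4168 bases in all 6 libraries of the 4- to 8-cell stage and shorter in all 6 of the sphere stage. No test was run on lengths, since 3 against 3 libraries cannot give an exact permutation p under 0.1.

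**Figure D5:**
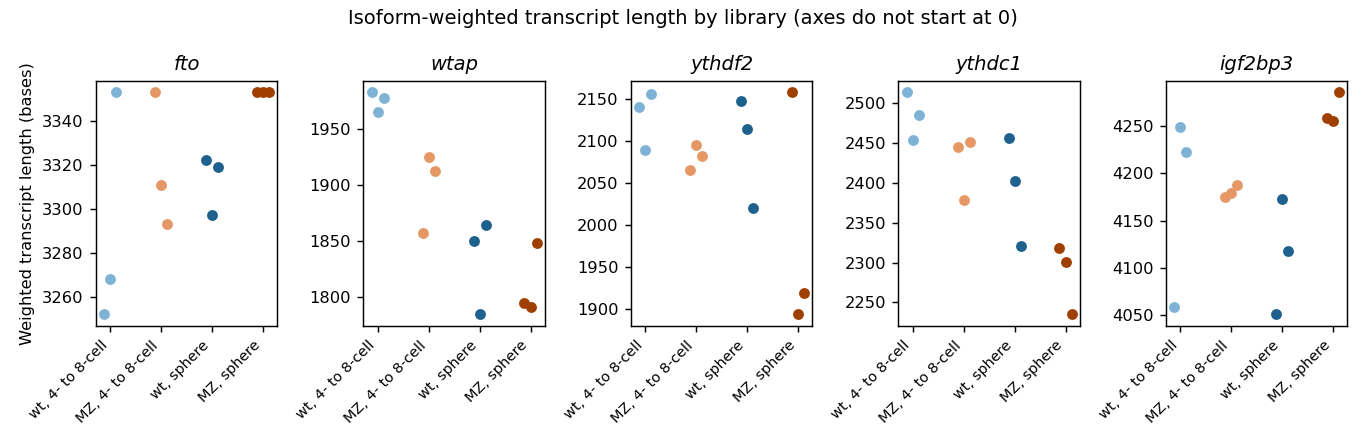
Isoform-weighted transcript length, in bases, of fto, wtap, ythdf2, ythdc1 and igf2bp3 in each library, on axes that do not start at 0. Points are libraries; the MZ sphere libraries lie below wt for ythdc1 (2235 to 2318 against 2321 to 2457 bases) and above it for igf2bp3 (4255 to 4286 against 4051 to 4173 bases), while ythdf2 overlaps.

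Genes beside fto were read from the RefSeq gene order of another assembly (GRCz12tu), by name only. On one side lie aktip, an adaptor of vesicle transport, and chd9, a chromatin remodeller, and on the other irx3a and irx5a, homeobox genes that were not analysed here. In sphere embryos chd9 held 32.2, 32.7 and 40.6 CPM in wt and 13.7, 12.9 and 9.24 CPM in MZ libraries. The MZ libraries all lay below the wt libraries, at a log2 fold change of -1.57 (SE 0.21, adjusted p 0.0101), and the call was lost without MZ sphere replicate 2 (-1.62, adjusted p 0.0638). In 4- to 8-cell embryos chd9 held 19.9, 26.7 and 18.1 CPM in wt and 11.1, 14.1 and 10.6 CPM in MZ libraries (-0.83, SE 0.21, adjusted p 0.0823), again without overlap but not called. DESeq2 (adjusted p 0.00638) and the fit to all 12 libraries (adjusted p 0.0497) did call it. Its interaction was -0.73 (SE 0.30, adjusted p 0.188), not called. For aktip the genotypes overlapped at both stages, at -0.05 (SE 0.08) and 0.08 (SE 0.12). In GRCz12tu fto and mettl3, both called at the sphere stage, lie on chromosome 7. The part of the line's genetic background in these differences was not tested.

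Over the 12 libraries, the genes whose log2(CPM + 1) followed that of fto most closely were GNPAT (Pearson r 0.977), an enzyme of ether lipid synthesis in peroxisomes, ENSDARG00000092550, which has no symbol (0.957), SNX1, a sorting nexin (0.957), SLC39A13, a zinc transporter (0.956), and DIXDC1, which carries a DIX domain (0.954). The symbols in capitals are those of the gene name table. The 12 points share genotype, stage and library, so that r describes these libraries only. In MZ sphere libraries GNPAT held 0, 3 and 1 counts and ENSDARG00000092550 held 1, 7 and 6. With log2(TPM + 1) in place of CPM, 3 of the 5 stayed among the first 5.

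Other genes of the m6A pathway and of RNA decay were counted from lists, beside the 3.02% (edgeR), 12.1% (DESeq2) and 3.31% (limma on log2(TPM + 1)) of all genes called at the 4- to 8-cell stage and the 7.78, 16.8 and 5.65% called at the sphere stage. Of the other m6A writers, 9 of 10 were matched and tested: virma, zc3h13, rbm15, rbm15b, mettl16, mettl5, zcchc4, trmt112 and pcif1. This list covers the writer complex and genes tied to other m6A methyltransferases, and is not limited to the messenger RNA mark. At either stage 0 of the 9 were called by edgeR, DESeq2 or limma. At an unadjusted edgeR p under 0.05 there was 1 at the 4- to 8-cell stage and 0 at the sphere stage. The median log2 fold change of the 9 was -0.03 at the 4- to 8-cell stage and -0.14 at the sphere stage. Of 9 other readers tested, hnrnpc, a nuclear RNA-binding protein, was lower in MZ 4- to 8-cell embryos (386.6, 384.7 and 362.7 CPM in wt, 315.9, 311.9 and 285.1 CPM in MZ). The groups did not overlap, at a log2 fold change of -0.30 (SE 0.05, adjusted p 0.0427), and the call was lost with any 1 of the 6 libraries left out (adjusted p 0.0713 to 0.132). No other reader was called by edgeR at either stage, DESeq2 also called eif3a, a translation initiation factor subunit, at the sphere stage, and the medians were -0.12 and -0.09.

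Of 7 other AlkB family genes, relatives of the erasers, alkbh2, a DNA repair dioxygenase, was higher in MZ sphere embryos. It held 15.3, 16.2 and 10.8 CPM in wt and 14.8, 16.7 and 14.6 CPM in MZ 4- to 8-cell libraries, and 3.42, 3.09 and 3.74 CPM in wt against 13.1, 10.2 and 12.5 CPM in MZ sphere libraries. The genotypes overlapped at the first stage and lay apart at the second, where the log2 fold change was 1.79 (SE 0.25, adjusted p 0.0101) and was not called without MZ sphere replicate 2 (adjusted p 0.0563) or replicate 3 (0.0598). Between stages it fell by 1.98 (SE 0.21, adjusted p 1.64e-05) in wt embryos and had a value of -0.32 (SE 0.20, adjusted p 0.234) in MZ embryos. The interaction was 1.66 (SE 0.29, adjusted p 0.0274), not called without wt 4- to 8-cell replicate 2, wt sphere replicate 1, MZ 4- to 8-cell replicate 1 or 3, or MZ sphere replicate 2 or 3 (adjusted p 0.0509 to 0.0843). In this family edgeR called 0 at the 4- to 8-cell stage (2 at an unadjusted p under 0.05; DESeq2 called 2, alkbh4 and alkbh6), and the medians were -0.17 and 0.13.

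Of 22 deadenylation and decay genes tested, 0 were called at the 4- to 8-cell stage by edgeR, DESeq2 or limma (4 at an unadjusted edgeR p under 0.05), and 3 were called at the sphere stage by edgeR, 7 by DESeq2 and 1, ddx6, by limma. These are 3, 7 and 1 of 22 where the tools called 7.78, 16.8 and 5.65% of all genes. There ddx6, a helicase of P-bodies, was higher in MZ (248.6, 281.4 and 288.0 CPM in wt, 353.8, 379.5 and 396.2 CPM in MZ), at 0.46 (SE 0.10, adjusted p 0.0334). An adaptor of the CCR4-NOT deadenylase, tob1b, was higher as well (0.67, SE 0.16, adjusted p 0.0469), and pan2, the catalytic subunit of the PAN deadenylase, was lower (-0.44, SE 0.10, adjusted p 0.0446). All 3 lay apart between genotypes. Each of these calls was lost in 4 or 5 of the 6 fits that left out 1 library. It held for ddx6 only without wt sphere replicate 2 or 3, for tob1b only without MZ sphere replicate 1 (adjusted p 0.0219) and for pan2 only without wt sphere replicate 3 (0.046). Of 11 genes for other mRNA marks tested, 0 were called at the 4- to 8-cell stage (edgeR; 2 at an unadjusted p under 0.05; DESeq2 called 1, trdmt1), and alyref, an RNA export adaptor that binds 5-methylcytosine, was the 1 called by edgeR at the sphere stage, where DESeq2 called 5 and limma 0, read against the same shares of all genes (7.78, 16.8 and 5.65%). It held 431.9, 486.1 and 369.8 CPM in wt and 150.5, 271.2 and 252.1 CPM in MZ sphere libraries, without overlap (-0.95, SE 0.21, adjusted p 0.0389). This call held only without wt sphere replicate 3 or MZ sphere replicate 1. In the same list pus7, a pseudouridine synthase named here after its value was seen, had a called interaction of -0.84 (SE 0.18, adjusted p 0.037), lost in 10 of the 12 fits that left out 1 library, all but those without wt sphere replicate 3 or MZ sphere replicate 1. For the 4 lists other than the AlkB family, the medians lay between -0.33 and 0.08 at both stages. At the sphere stage an unadjusted edgeR p under 0.05 was found for 2 of 9 other readers and 2 of 7 AlkB genes. It was found for 9 of 22 decay genes and 6 of 11 genes for other marks. The share of all genes at that threshold was not counted, so the unadjusted counts of the lists have no background beside them.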

How the data were processed

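The authors sequenced poly-A RNA from both ends and used the zebrafish build danRer10 with Ensembl release 89; Bowtie and RSEM are listed, without versions, in the submitters' processing notes. RSEM shares reads among transcripts by probability, so the expected counts deposited by the authors need not be whole. The TPM deposited by the authors are scaled by effective length and sum to the same total in each library. Isoforms are averaged in these gene values, and lengths are RSEM's abundance-weighted means.

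Expected counts were rounded and the ribosomal RNA gene removed. Genes with a mean TMM-scaled count above 10 were tested by edgeR 4.0.16 (quasi-likelihood, R 4.3.3), genotypes per stage and stages and interaction in 1 fit to 12 libraries, with p-values adjusted by Benjamini-Hochberg over all genes tested and called under 0.05. The standard error (SE) is that implied by the F statistic. Alternatives were DESeq2 1.42.0, limma 3.58.1 on log2(TPM + 1) and log2(TPM + 0.1), other scalings and filters, unrounded counts, a 2-fold threshold, other sample sets, a replicate block and leaving out each library. Symbols came from a gene name table (25752 of 31462 identifiers). The rule for naming took all 10 genes, list genes called between genotypes (up to 4 per list), the neighbours of fto, the 5 genes most like it, and smchd1. The genes and lists were chosen with earlier results of these data known. Scripts were tested on simulated data. Libraries of a group are described as biological samples, and separate clutches are not stated. The p-values set differences against the spread between these samples and may not cover the spread between clutches.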

Additional observations from a re-analysis of the deposited data

Results flagged for a closer look

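The genotype by stage interaction, which tests whether the change between stages differs between wt and MZ embryos, was called by edgeR for fto, alkbh2 and pus7. It was also called for 4 of the 5 genes chosen because they follow fto over the same libraries. Over all genes edgeR called 1.97%. The genes and lists, fto included, were chosen with earlier results of these data known, and pus7 was named after its value was seen. These genes therefore make no tally to set against that share. For fto it was -2.10 (SE 0.27, adjusted p 0.00946), with a stage change of -2.71 in MZ and -0.61 in wt embryos. For alkbh2 it was 1.66 (SE 0.29, adjusted p 0.0274), with stage changes of -0.32 in MZ and -1.98 in wt embryos. For pus7 it was -0.84 (SE 0.18, adjusted p 0.037), with -0.24 in MZ and 0.60 in wt embryos, and its adjusted p ran from 0.000243 to 0.0849 over the other settings and from 0.0177 to 0.0973 with 1 library left out. For the 4 chosen for their likeness to fto, the values describe that choice: -3.94 for GNPAT (SE 0.65, adjusted p 0.0199), -2.25 for ENSDARG00000092550 (SE 0.51, 0.049), -1.89 for SNX1 (SE 0.27, 0.0128) and -0.85 for SLC39A13 (SE 0.14, 0.0189). The first 2 rest on values near 0 in MZ sphere libraries, 0, 3 and 1 counts for GNPAT and 1, 7 and 6 for ENSDARG00000092550.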

How the results depend on the processing

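The fall of fto in MZ sphere embryos, its fall between stages in MZ embryos and its interaction kept their direction and their call under every alternative run. Its stage change in wt embryos was -0.60 (adjusted p 0.0555) in a fit to 1 genotype and -0.71 to -0.40 with 1 library left out. The number of the 10 genes called at the 4- to 8-cell stage was 1 with DESeq2 (12.1% of all genes). It was 0 to 1 with 1 library left out (125 to 333 of all genes). At the sphere stage it was 1 above a 2-fold change (764 of all genes) and 1 with limma on either TPM scale (5.65% of all genes on log2(TPM + 1)). With 1 library left out it was 1 to 2 (84 to 1250 of all genes). In the 12-library fit, where 2591 of all genes were called beside 1269 in the fit reported, it was 4 (fto, mettl3, mettl14 and igf2bp3). Between stages in wt it was 0 above a 2-fold change (4134 of all 16595 genes) and 4 to 7 with 1 library left out (7084 to 8071 of all genes). It was 4 in the fit to 1 genotype, for which the count over all genes is not given here. In MZ it was 1 above a 2-fold change (3387 of all genes), and for the interaction 2 with DESeq2 (8.56% of all genes).

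Counts over all genes moved more. At the 4- to 8-cell stage they were 482 in the fit reported, 290 above a 2-fold change, 1927 with DESeq2, 66 with the replicate block and 125 to 333 with 1 library left out. At the sphere stage they were 1269, 764 above a 2-fold change, 2725 with DESeq2, 2591 in the 12-library fit and 84 to 1250 with 1 library left out. Between stages 4134 in wt and 3387 in MZ lay above a 2-fold change. For the interaction they were 327, 209 above a 2-fold change, 1415 with DESeq2 and 26 to 806 with 1 library left out. The share of sphere-stage calls that were higher in MZ was 47.7% with TMM, 62.4% with no scaling factor and 67.9% on log2(TPM + 1). The cause of these shifts was not tested.

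On both TPM scales limma called the stage changes of fto, ythdf1, ythdf3 and igf2bp3 lower in both genotypes and those of alkbh5 (adjusted p 0.00477 on log2(TPM + 0.1)) and mettl14 (0.000783) lower in wt. Directions changed for values near 0 and for stage changes on the TPM scale, whose median differs. In the following, the first value of a pair is on log2(TPM + 1) and the second on log2(TPM + 0.1). Between genotypes ythdc1 at the 4- to 8-cell stage was 0.0025 and 0.0025 (0.0021 in the 12-library fit), and at the sphere stage ythdf2 was 0.12 and 0.13 and ythdf3 0.0334 and 0.034. Between stages in wt, mettl3 was -0.072 and -0.0729, wtap -0.13 and -0.13, ythdf3 -0.58 and -0.58 (-0.17 with no scaling factor, -0.0446 with no filter), ythdc1 -0.19 and -0.20 and igf2bp3 -0.25 and -0.25. Between stages in MZ, mettl3 was -0.15 and -0.15, mettl14 -0.26 and -0.27, ythdf3 -0.37 and -0.37 (-0.0474 with no scaling factor), ythdc1 -0.23 and -0.23 and igf2bp3 -0.36 and -0.36. With 1 library left out the sign also changed, none of these being called, for wtap (-0.0638 to 0.11), ythdc1 (-0.0243 to 0.015), aktip (-0.10 to 0.005) and alkbh2 (-0.0174 to 0.25) at the 4- to 8-cell stage. At the sphere stage it did so for ythdf2 (-0.23 to 0.009) and aktip (-0.0391 to 0.16), in the wt stage change for alkbh5 (-0.24 to 0.0586) and ythdf3 (-0.0028 to 0.0431). For the interaction it did so for ythdf2 (-0.0726 to 0.15) and ythdf3 (-0.0037 to 0.0565).

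Same-numbered libraries did not deviate together throughout (correlations of -0.0655 to 0.323), so the numbers were not used as pairs. With the replicate block the genes called were 66 at the 4- to 8-cell stage and 1248 at the sphere stage. The number of the 10 genes called was 0 and 2 at the 2 stages, 7 and 5 between stages and 1 for the interaction. For the stage and interaction tests with the block the count over all genes is not given here, so those numbers have no background beside them. At the 4- to 8-cell stage each wt library correlated best with the MZ library of its own number, at only 0.0751, 0.0585 and 0.0164. In no other pair of groups did all 3 numbers match in this way. Whether the numbers mark shared clutches or days is not stated and was not tested. The value of 0.323 was that of replicate 3 in wt and MZ sphere libraries. The level of fto in MZ sphere libraries rests on 49 to 137 counts each.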
